A study of Mus musculus with 25 samples.

Results

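The expressed Zfp genes are 159 mouse genes whose symbol is Zfp followed by a number and whose deposited level was at least 5 FPKM (fragments scaled by transcript length and library size) in at least 3 of 25 RNA-seq libraries. They were selected on these measured FPKM values from 337 Zfp symbols among 24412 deposited genes. Of the other Zfp genes, 174 stayed under that level, and 4 that reached it (Zfp352, Zfp57, Zfp42 and Zfp36) were left out by name. Members were called maternal where the wild-type mean was at least as high in oocytes as in late 2-cell embryos (76 genes) and zygotic otherwise (83 genes), so that the wild-type change from oocyte to late 2-cell embryo is a description of the choice and carries no test. Just inside the level were Zfp111 and Zfp869, both with a third-highest value of 5.03 FPKM, and Zfp618 at 5.15 FPKM. Just outside were Zfp593 at 4.93, Zfp691 at 4.78 and Zfp710 at 4.75 FPKM.

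The libraries came from mouse MII oocytes (3 wild-type and 2 knockout), zygotes at pronuclear stage PN3 (4 and 4), early 2-cell embryos, E2C (3 and 3), and late 2-cell embryos, L2C (3 and 3). The knockout removed Smarca4, which encodes Brg1, the ATPase of the BAF chromatin remodelling complexes, with floxed alleles and a Gdf9-driven Cre that acts in the growing oocyte. Oocytes were from females of 8 to 12 weeks that were superovulated with PMSG and hCG, and sperm was injected to make embryos. The females were C57BL/6 with Smarca4flox/flox and Gdf9 Cre, or B6D2F1 hybrids; neither the strain behind each library nor the genotype of the sperm is named in the labels, and strain and knockout cannot be told apart. No label says that replicates came from separate females, and p-values then measure only the spread between these libraries, which may be technical.

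Zfp proteins carry C2H2 zinc fingers, small loops held by a zinc ion that read DNA or, in some members, bind RNA or protein. Many also have a KRAB box, which recruits Trim28 and through it Setdb1, the enzyme that lays down H3K9 methylation on retrotransposons and imprinted regions. In the mouse, RNA stored by the oocyte is cleared after fertilisation while the embryo's own transcription starts in the zygote and becomes strong at the 2-cell stage, and these genes take part in both RNA pools.

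The promoters of members at the ends of the wild-type change are shown because they give the sequence upstream of the strongest loss and the strongest gain, as far as the promoter table held an entry. Each line is the 250 bases before a RefSeq transcript start on GRCm38.p6, 5′ to 3′, with capitals at GGATTA (the core of Obox and Otx sites), AGGTCA (a nuclear receptor site of the Nr5a2 type), GGGCGG (GC box) and CCAAT (NF-Y box), searched on both strands. Zfp61 (chr7:24299550-24299799, minus strand) and Zfp58 (chr13:67500523-67500772, minus) are maternal. Zfp367 (chr13:64153200-64153449, minus) and Zfp622 (chr15:25984116-25984365, plus) are zygotic.
Zfp61: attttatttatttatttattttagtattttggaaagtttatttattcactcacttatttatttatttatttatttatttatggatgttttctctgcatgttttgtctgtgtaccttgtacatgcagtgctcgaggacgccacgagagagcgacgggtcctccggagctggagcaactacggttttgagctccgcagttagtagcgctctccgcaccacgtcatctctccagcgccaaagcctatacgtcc
Zfp58: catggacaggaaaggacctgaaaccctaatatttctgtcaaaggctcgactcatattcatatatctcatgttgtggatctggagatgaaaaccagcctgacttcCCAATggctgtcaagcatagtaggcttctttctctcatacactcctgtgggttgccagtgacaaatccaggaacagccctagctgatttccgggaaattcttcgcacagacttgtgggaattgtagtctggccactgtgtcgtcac
Zfp367: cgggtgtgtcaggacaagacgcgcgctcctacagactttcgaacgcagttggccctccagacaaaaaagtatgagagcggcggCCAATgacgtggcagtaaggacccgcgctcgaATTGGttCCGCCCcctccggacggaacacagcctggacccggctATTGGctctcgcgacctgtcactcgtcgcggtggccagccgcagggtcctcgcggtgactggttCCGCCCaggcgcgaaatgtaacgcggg
Zfp622: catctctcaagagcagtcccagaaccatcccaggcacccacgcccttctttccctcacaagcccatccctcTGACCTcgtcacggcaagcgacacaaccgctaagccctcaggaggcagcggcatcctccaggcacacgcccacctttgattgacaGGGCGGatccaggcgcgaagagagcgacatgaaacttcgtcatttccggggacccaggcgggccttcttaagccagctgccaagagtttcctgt

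The Zfp61 window held no match to these letters, the Zfp58 window held a CCAAT box, and the Zfp367 window held GC boxes and CCAAT boxes, while Zfp622 had an AGGTCA and a GC box. The Zfp61 window lies inside the gene as placed in GENCODE M21 (chr7:24291039-24301232, minus). Which start oocytes use was not tested. The table also holds another Zfp367 start, whose window (chr13:64152374-64152623, minus) held GC boxes and no CCAAT. Zygotic Zfp1 (chr8:111643193-111643442, plus), next by wild-type gain among members with an entry, is not printed and held no match. The shares that follow were counted over each whole promoter entry of the table. The printed lines are the first 250 bases of their entries. Over the 66 maternal genes with an entry (80 windows), 36.2% of windows held a GC box, close to the 35.7% of all 32851 windows in the table. Over the 65 zygotic genes (89 windows) the share was 60.7%. AGGTCA was found in 5% of maternal and 21.3% of zygotic windows against 16.3% of all, and CCAAT in 47.5% and 39.3% against 37.4%. GGATTA was found in 8.75% and 7.87% against 7.06%. A gene with several starts counts several times, and a match is a description of the letters only.

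Several libraries stood apart. Smarca4 itself was at 26.0 to 30.5 scaled FPKM in wild-type and at 0.219 to 0.221 in knockout oocytes, at 29.6 to 33.2 against 0.222 to 0.448 at PN3, at 19.0 to 34.9 against 0.767 to 5.12 at E2C, and at 48.5 to 90.4 against 21 to 22.5 at L2C. Scaled FPKM is the deposited value divided by a library factor. Wild-type E2C replicate 2 had 9345 genes above 0, against 13793 to 15560 in the other E2C libraries, and 16 members were listed at 0 in it. Wild-type L2C replicate 3 correlated at 0.981 with knockout replicates 2 and 3 and at 0.922 and 0.929 with the other wild-type L2C libraries (across the genes tested, on the log2 scale). These 3 libraries had 16267 to 16455 genes above 0, and the other 3 L2C libraries 13585 to 14407. All 8 oocyte markers were present in every library, and their sum at L2C was 312, 386 and 793 in wild-type and 661, 885 and 910 in knockout libraries. Cumulus and granulosa markers summed to at most 6.68 and blood markers to at most 1.94 in any library, with the globin genes Hbb-bs and Hba-a1 at 0 throughout, whereas sperm and testis markers reached 19.5 in a knockout E2C library. The part of these differences in the results was not tested. Depth is unknown, since FPKM without read counts does not carry it.

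In wild-type libraries the members divided into RNAs that were high in the oocyte and low at L2C and RNAs that came up at the 2-cell stage. The median change from MII to L2C was -1.12 on the log2(scaled FPKM + 1) scale for the maternal and 1.37 for the zygotic members, and 49 and 51 of them changed at least 2-fold. Of all 8192 genes at the same FPKM level, 48.2% were maternal, against 47.8% of the members. The members near the boundary were Zfp946 (6.68 at MII and 6.16 at L2C) and Zfp229 (11.4 and 11) on the maternal side, and Zfp68 (40.3 and 40.7) and Zfp414 (8.75 and 9.01) on the zygotic side. At least 5 FPKM was reached in all 25 libraries by 38 members, and in L2C libraries only by 25 members. Zfp438 and Zfp524 reached it only in MII oocytes, and Zfp111 and Zfp169 only at PN3.

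**Figure D1:**
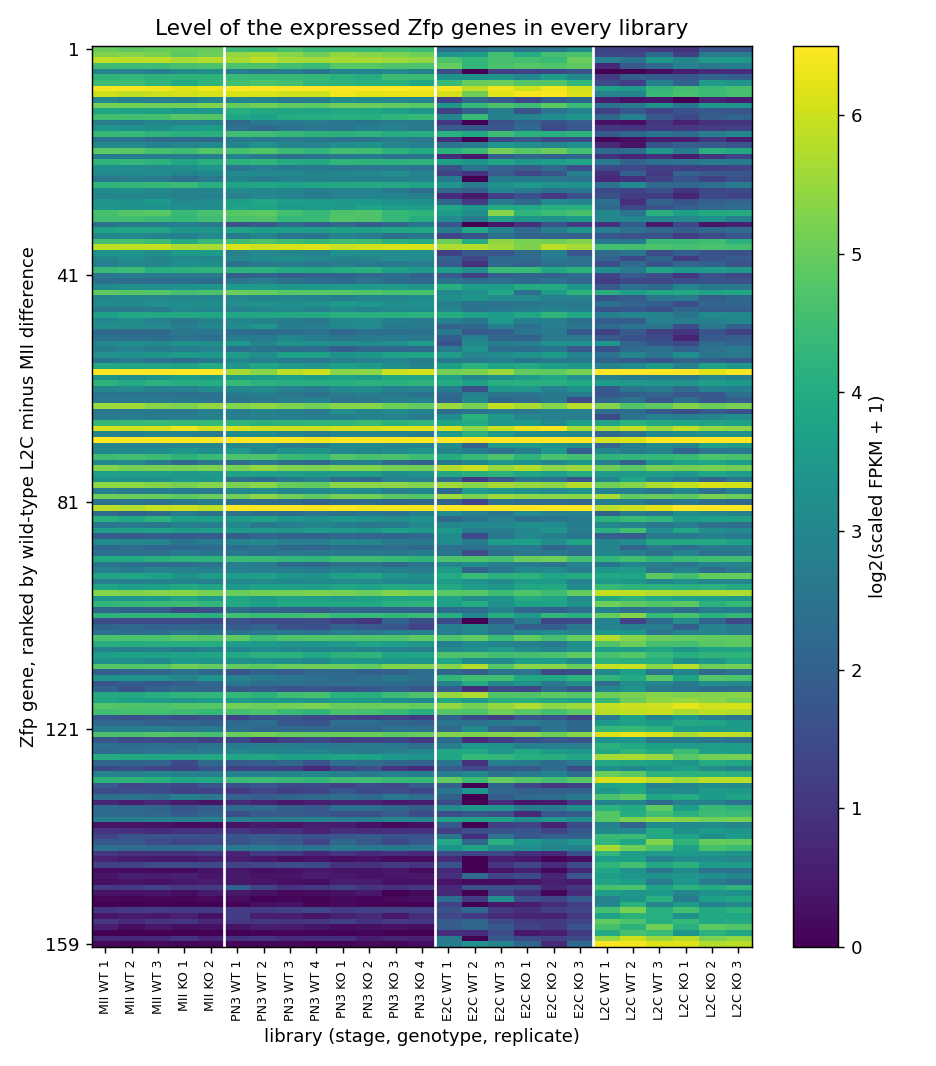
Level of all 159 expressed Zfp genes, as log2(scaled FPKM + 1), with genes in rows ranked by the wild-type L2C minus MII difference and the 25 libraries in columns; white lines part the stages. Of the 76 maternal genes those toward the top darken by L2C, and of the 83 zygotic genes those toward the bottom brighten. Rows near the boundary of the classes change little. The dark cells of wild-type E2C replicate 2 are members listed at 0.

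Zfp61 showed the deepest loss. It was at 31.7, 28.5 and 31.0 scaled FPKM in wild-type MII oocytes, at 20.4 to 23.3 at PN3, at 4.32, 4.36 and 5.47 at E2C and at 1.48, 1.29 and 1.10 at L2C. Each stage lay below the one before with no overlap. Zfp58 held its level longer, with 35.8 to 38.4 at MII and 32.3 to 46.8 at PN3 before 9.45, 10.9 and 22.3 at E2C and 1.63, 1.60 and 3.85 at L2C. Zfp277, a partner of the Polycomb protein Bmi1, went from 56.6 to 58.1 at MII to 6.29, 4.61 and 9.97 at L2C. Zfp383, a KRAB zinc finger gene, was still at 18.3 to 30.3 at E2C and then at 0.683, 2.52 and 3.42 at L2C, so its loss fell within the 2-cell stage. Zfp90 went from 5.87 to 6.84 at MII to 0.21 in wild-type L2C replicate 3 and was listed at 0 in the other wild-type L2C libraries.

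Zfp622, a factor for maturation of the large ribosomal subunit, showed the greatest gain. Its wild-type values were 0.110, 0.049 and 0.128 at MII and 0.0379 to 0.0973 at PN3, then 5.81, 8.73 and 6.75 at E2C and 95.0, 84.2 and 71.4 at L2C. E2C was above every earlier library, and L2C above every E2C library. Zfp707 reached 43.1, 63.4 and 45.3 at L2C from 0.650 to 0.680 at MII. Zfp599, another KRAB gene, reached 14.6, 23.2 and 20.2 from at most 0.0126. Zfp367 reached 23.5, 17.5 and 33.1 from 0.183 to 0.452, and Zfp7 29.5, 24.3 and 16 from 0.747 to 1.04. Of these, Zfp367 and Zfp7 were present at E2C in every wild-type library at 1.86 to 3.50, whereas Zfp707 was listed at 0 in wild-type E2C replicate 2 and at 5.50 and 2.38 in the others.

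The members with the highest mean over all libraries differed in their course. Zfp655 had the highest, with a mean of 109 scaled FPKM, and lay between 67.2 and 157 in every library. Zfp957 was next with a mean of 86.6. Zfp296, which is active in germ cells and pluripotent cells, was at 154 to 164 in wild-type MII oocytes, 39.4 to 64.4 at PN3, 34.5 to 45.2 at E2C and 91.1 to 111 at L2C. Its L2C values lay below those of MII and above those of PN3 and E2C. Zfp108 (mean 67.6) was at 56.4 to 99.8 up to E2C and at 10.3 to 18.9 in wild-type L2C embryos. Zfp592, which works with the chromatin reader Zmynd8, stayed at 40.2 to 67.4 in wild-type libraries of all stages.

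The step from PN3 to E2C in wild-type embryos was measured in libraries that the maternal and zygotic split did not use. The level of 5 FPKM did use them, so the counts describe the members and support nothing. Zfp111 and Zfp169 reached that level only at PN3, and Zfp169 is among the members called lower. Of the 159 members, 54 were called at this step by limma (adjusted p under 0.05 over 12079 genes), against 31% of all genes tested. Of the maternal members 28 fell and 3 rose, and of the zygotic members 19 rose and 4 fell, while 18.1% of all genes fell and 12.9% rose. The medians were -0.40 and 0.29, against -0.40 and 0.26 for all maternal and all zygotic genes at the same FPKM level. With the FPKM as deposited, 16 members rose and 44 fell, in place of 22 and 32.

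Zfp622 led the rises at this step (log2 change 2.91 ± 0.23, SE; adjusted p = 1.92e-09, limma). Zfp54 was at 0.0307 to 0.169 at PN3 and at 3.99, 1.2 and 8.07 at E2C, a rise of 2.11 (adjusted p = 1.29e-05, limma). Zfp51, its neighbour on chromosome 17, was at 4.26 to 6.12 and then at 18.3, 22.3 and 22.3 (1.85, adjusted p = 3.13e-05, limma). The PN3 and E2C values did not overlap for any of these. Such clustered copies resemble each other, and reads that fit several of them may be split between them, so their single values are uncertain. Zfp809, which silences retroviral DNA through its tRNA primer site, rose by 1.75 (adjusted p = 0.00225, limma), with 14.1, 3.45 and 16.3 at E2C against 1.41 to 2.65 at PN3. Among the maternal members Zfp866 fell most, from 5.78 to 6.98 at PN3 to 0.774, 0.367 and 1.31 at E2C (-2.04, adjusted p = 7.65e-08, limma), followed by Zfp61 (-1.97, adjusted p = 2.91e-08, limma). The 3 maternal members that rose were Zfp451, Zfp560 and Zfp420, named after their values were seen. Zfp451, a SUMO ligase, was at 35.4 to 41.8 at PN3 and at 44.5 to 62.3 at E2C (0.49, adjusted p = 0.0194, limma). In knockout embryos 37 members were called at the same step, against 21.1% of all genes. No member was called for a difference of this step between the genotypes (limma interaction, 0% of all genes; 7 members at an unadjusted p under 0.05, against 5.32% of all genes; lowest adjusted p 0.492 for Zfp622).

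In the knockout most members changed in the direction of their class between MII and L2C. The split did not use the knockout libraries, but the level of 5 FPKM did, and 25 members reached it in L2C libraries only, so the counts describe the members and support nothing. Between MII and L2C, 67 of 76 maternal members had a knockout change below 0, with 59 called lower and 2 higher by limma, against 30.7% of all genes called lower and 38% called higher. Of the zygotic members 76 of 83 lay above 0, with 56 called higher and 1 lower. The medians were -1.09 and 1.2, beside -1.12 and 1.37 in wild type. Among all maternal genes at the same FPKM level 8.61% lay above 0 in the knockout, against 9 of 76 members here, and among all zygotic genes 9.50% lay below 0, against 7 of 83. Zfp622 rose by 5.81 in the knockout (6.26 in wild type), Zfp707 by 4.68 (4.94) and Zfp367 by 4.29 (4.23). Zfp61 fell by 3.54 (3.78 in wild type) and Zfp58 by 2.74 (3.57).

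**Figure D2:**
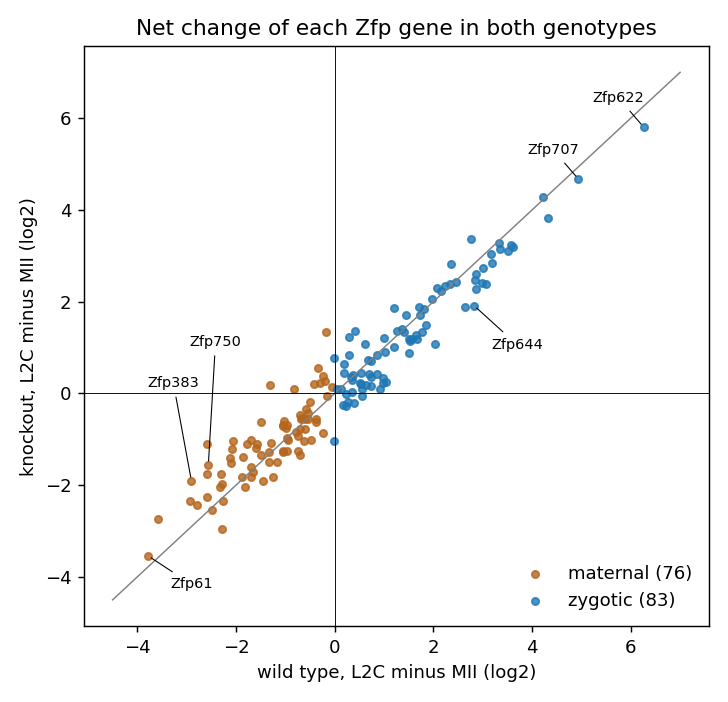
Change from MII to L2C (log2) of each of the 76 maternal and 83 zygotic Zfp genes in wild-type (x axis) and knockout (y axis) libraries, with the line of equal change. Zfp622 (6.26 and 5.81) and Zfp61 (-3.78 and -3.54) mark the ends, Zfp383 (-2.90 and -1.90) and Zfp750 (-2.56 and -1.55) lie above the line and Zfp644 (2.82 and 1.92) below it.

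The 3 called members that went the other way in the knockout lay near the boundary of the split. Zfp414, zygotic by a small margin, fell by 1.03 (adjusted p = 0.00468, limma) from 10.5 and 9.79 at MII to 5.54, 3.19 and 4.91 at L2C. Zfp946 rose by 1.34 (adjusted p = 0.00211, limma) from 3.67 and 4.93 to 12.6, 13.2 and 11.2, and Zfp560 rose by 0.55 (adjusted p = 0.0218, limma) from 6.11 and 5.25 to 8.30, 9.20 and 8.73. The knockout MII and L2C values overlapped for none of the 3.

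The level of each class was also summed per library. The maternal members summed to 1431 to 1471 scaled FPKM in wild-type and 1401 and 1459 in knockout oocytes. At L2C the maternal sum was 607, 588 and 739 in wild-type and 719, 764 and 764 in knockout libraries, which overlapped through wild-type replicate 3. The zygotic sum at L2C was 1770, 1824 and 1648 in wild type and 1561, 1552 and 1533 in the knockout, with every knockout library below every wild-type library. The zygotic members were chosen for high wild-type L2C means, so this sum uses values of the split and is a description. Together the members made up 0.780% to 1.01% of the scaled FPKM of a library. In bulk libraries like these, fewer embryos at a given step and less RNA of a gene per embryo cannot be told apart.

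**Figure D3:**
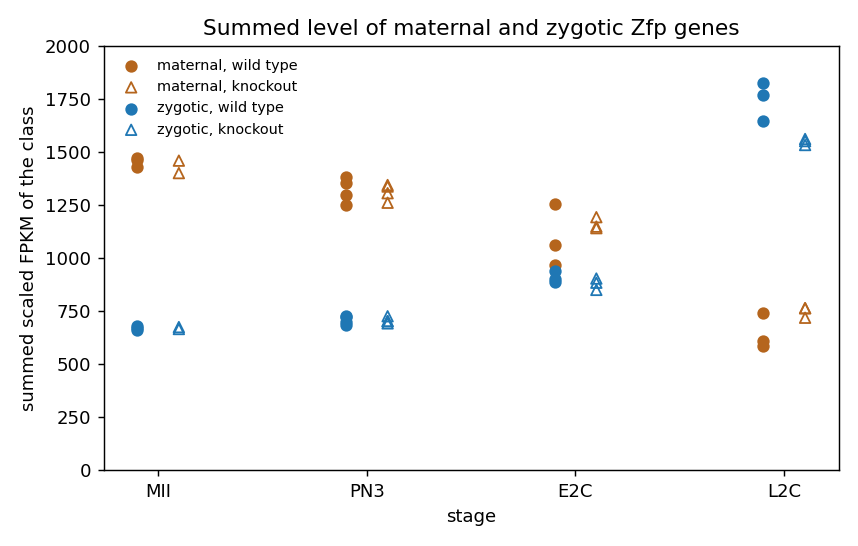
Summed scaled FPKM of the 76 maternal and 83 zygotic Zfp genes in each library by stage, with filled circles for wild type and open triangles for the knockout. At L2C the zygotic sums are 1648 to 1824 in wild type and 1533 to 1561 in the knockout, and the maternal sums 588 to 739 and 719 to 764.

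Between genotypes, MII oocytes gave 25 called members (13 higher and 12 lower in the knockout, limma), against 13% of all genes (5.99% higher and 6.99% lower), so the share of members was near that of all genes. With the FPKM as deposited the split was 6 higher and 20 lower. Fitted on the MII libraries alone, 2 members were called (Zfp618 and Zfp956) and 3.51% of all genes, and with equal weights for all libraries no member was called, against 0.00828% of all genes. Equal weights apply the wider spread of the 2-cell stages to MII and miss changes there that stage weights recover on simulated data. Leaving out a library gave 11 to 38 called members, with 11 without wild-type MII replicate 2, 12 without replicate 1, 13 without knockout MII replicate 1 and 38 without knockout MII replicate 2, where 6.19%, 7.86%, 8.96% and 16.8% of all genes were called. The MII values share the wild-type libraries with the split.

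The differences at MII were small. Zfp260 was at 3.45, 3.05 and 2.70 scaled FPKM in wild-type and at 1.73 and 2.01 in knockout oocytes (-0.50 ± 0.08, SE; adjusted p = 0.000192, limma). Zfp106, an RNA-binding protein needed by motor neurons and muscle, was at 17.6, 17.7 and 16.5 against 13.4 and 14.3 (-0.30, adjusted p = 0.000342, limma). Zfp956 was at 12.8, 13.1 and 12.8 against 9.94 and 9.33 (-0.39, adjusted p = 0.00105, limma). None of the 3 genes overlapped between the genotypes at MII, whereas at PN3 the differences were 0.02 for Zfp106 and 0.10 for Zfp956. With 3 and 2 libraries a lack of overlap is frequent. At MII every knockout library was above every wild-type library for 30 members (18.9%) and below for 38 (23.9%). The difference changed between MII and PN3 for 4 members by the limma interaction, against 2.29% of all genes. The other members that were lower in the knockout were Zfp946, Zfp943, Zfp939, Zfp534, Zfp944, Zfp952, Zfp345, Zfp109 and Zfp212 (-0.54 to -0.21). Zfp423, an Ebf1 partner in adipocyte and neural precursors, was at 3.79, 3.36 and 3.64 against 5.66 and 4.36 (0.38, adjusted p = 0.00356, limma). Zfp618 was at 3.72, 3.41 and 3.75 against 4.98 and 4.83 (0.35, adjusted p = 0.00336, limma). Zfp598, the ubiquitin ligase that marks collided ribosomes, was at 26.6, 25.8 and 26.2 against 32.2 and 29.9 (0.23, adjusted p = 0.0367, limma). All 3 were higher in both knockout libraries than in any wild-type library. The rest of the higher members were Zfp526, Zfp433, Zfp90, Zfp513, Zfp82, Zfp687, Zfp703, Zfp318, Zfp282 and Zfp532 (0.20 to 0.34).

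At PN3 a single member was called, lower in the knockout, against 3.05% of all genes (1.27% lower). Zfp263 was at 1.48, 1.60, 1.90 and 1.76 in wild-type and at 0.951, 0.947, 1.2 and 1.0 in knockout zygotes, with no overlap (-0.41 ± 0.11, SE; adjusted p = 0.0468, limma). With the replicate number as a block 13 members were called, 6 higher and 7 lower, against 8.97% of all genes. Fitted on the PN3 libraries alone no member was called, and 0.778% of all genes. At E2C no member was called by limma, against 0.00828% of all genes. There 10 members had an unadjusted p under 0.05, against 5.98% of all genes, and equal weights called 2 members, against 1.76% of all genes. With equal weights 70.8% of E2C calls on simulated data were false (moderated SDs). The largest E2C difference was in Zfp622, with 3.61, 0.725 and 3.83 in knockout against 5.81, 8.73 and 6.75 in wild-type embryos. Every knockout library was below every wild-type library, and the difference of -1.25 ± 0.31 (SE) did not pass the threshold (adjusted p = 0.375, limma).

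At L2C the maternal members leaned higher and the zygotic members lower in the knockout, and the medians of all genes of these classes were close to theirs. The median difference was 0.14 for the maternal members, with 50 of 76 above 0, and -0.24 for the zygotic members, with 61 of 83 below 0. For all maternal genes at the same FPKM level it was 0.16 (63.5% above 0), and for all zygotic genes -0.24 (71.0% below 0). These differences share the wild-type L2C libraries with the split. Without wild-type L2C replicate 3 the medians were 0.16 and -0.33. Within the 3 libraries with over 16000 genes above 0 (1 wild-type and 2 knockout) they were 0.14 and -0.11, and within the other 3 (2 wild-type and 1 knockout) 0.09 and -0.30. The median of all genes tested was -0.05. The sum of the oocyte markers and that of the 2-cell markers (93.4, 120 and 359 in wild-type, 240, 350 and 342 in knockout libraries) moved alongside, and their part in the result was not tested.

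**Figure D4:**
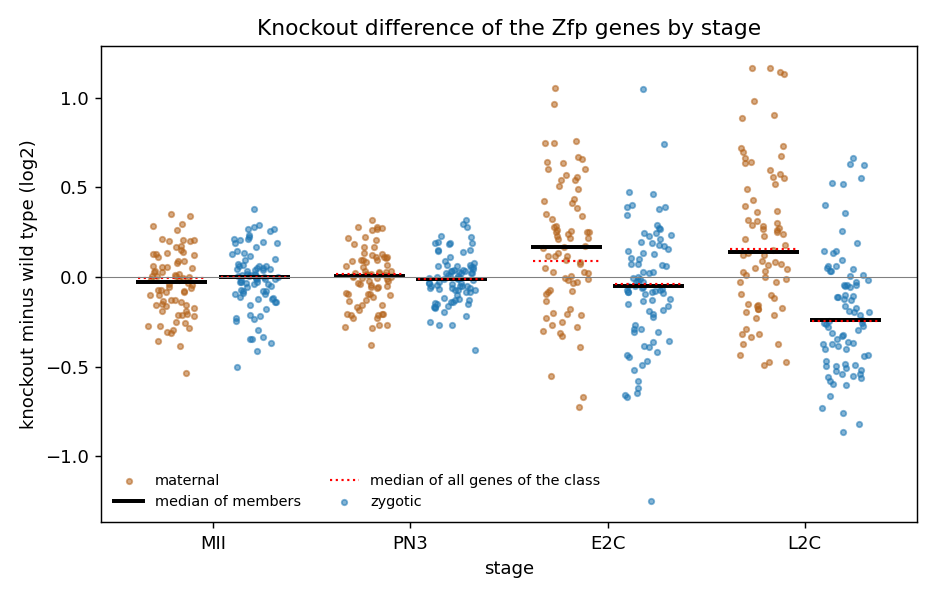
Knockout minus wild-type difference (log2) of each maternal and zygotic Zfp gene at the 4 stages, with black bars for the median of the members and dotted red lines for the median of all genes of the class. At L2C the medians are 0.14 and -0.24 for the members and 0.16 and -0.24 for all genes of the class.

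The 1 called member at L2C was Zfp383, higher in the knockout, against 0.77% of all genes (0.447% higher). It was at 6.06, 4.93 and 6.05 scaled FPKM in knockout and at 0.683, 2.52 and 3.42 in wild-type embryos, with no overlap (1.16 ± 0.27, SE; adjusted p = 0.0442, limma). The call was lost in 24 of 33 alternatives, among them those without wild-type replicate 1 (0.75, adjusted p = 0.319, limma) or replicate 2 (1.29, adjusted p = 0.148, limma). Zfp750, a factor of epidermal differentiation, was at 23.5, 20.4 and 22.8 against 6.41, 6.70 and 19.3. Its difference of 1.14 did not pass the threshold (adjusted p = 0.0546, limma), and within the 3 libraries with over 16000 genes above 0 it was 0.15. Zfp108 was at 22.3, 19.7 and 23.3 against 11.8, 10.3 and 18.9 (0.67, adjusted p = 0.096, limma). For Zfp383, Zfp750 and Zfp108 wild-type replicate 3 was the highest of its group and nearest to the knockout. Among the zygotic members Zfp644, a partner of the G9a and GLP methyltransferases, had the most negative difference, with 12.3, 23.4 and 20.5 in knockout against 48.7, 32.5 and 24.4 in wild-type embryos (-0.86, adjusted p = 0.107, limma). Zfp410, an activator of Chd4, was at 12.6, 8.30 and 10.6 against 19.7, 20.4 and 14.2 (-0.73, adjusted p = 0.296, limma). Zfp407 was at 10.6, 10.3 and 10.7 against 18.9, 19.6 and 17.2 (-0.76, adjusted p = 0.127, limma), and it differed by -0.66 and -0.80 within the 2 sets of libraries.

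Every knockout L2C library was above every wild-type library for 12 maternal members (15.8%) and below for 16 zygotic members (19.3%). The other way, 4 zygotic members (4.82%) were above and 1 maternal member (1.32%) was below. Over all 159 members 16 (10.1%) were above and 17 (10.7%) below. Over all genes 8.76% were above and 11.4% below. Of all maternal genes 15.2% were above, and of all zygotic genes 20.5% were below. Zygotic members with a higher knockout mean included Zfp957 (93.8 against 64.2 in wild type) and Zfp68 (64.1 against 40.7). At L2C 21 members had an unadjusted p under 0.05, against 17.7% of all genes. Without wild-type L2C replicate 3, 26 members were called (17 higher and 9 lower), against 22% of all genes, and with a fit of the L2C libraries alone none. At E2C 8 zygotic members (9.64%) were below in every knockout library, against 4.38% of all genes and 7.4% of all zygotic genes.

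**Figure D5:**
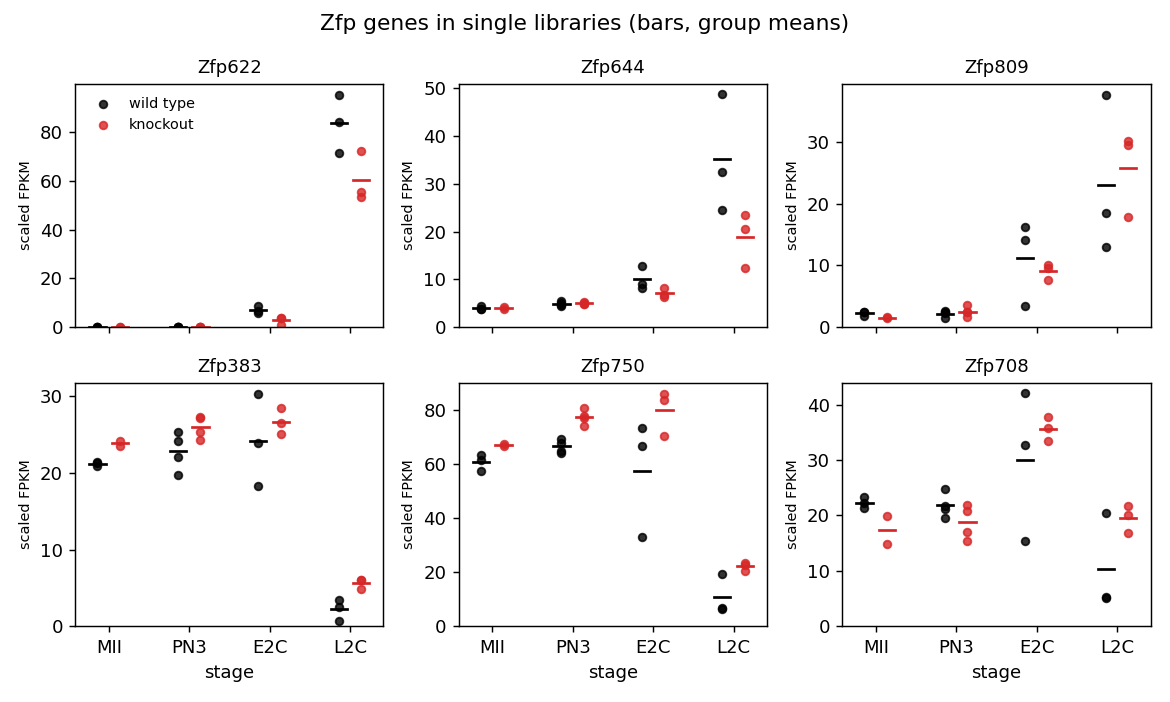
Scaled FPKM of 6 Zfp genes in every library by stage, black for wild type and red for knockout, with bars at group means. Zfp622 and Zfp644 come up at L2C, where the genotypes overlap for Zfp622 (53.2 to 72.1 in knockout and 71.4 to 95.0 in wild type) and not for Zfp644 (12.3 to 23.4 and 24.4 to 48.7), Zfp809 overlaps between genotypes at every 2-cell stage, and Zfp383, Zfp750 and Zfp708 fall at L2C in wild type, where replicate 3 is the highest point of Zfp750 (19.3) and Zfp708 (20.4).

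By role, 5 members are known silencers of repeats or imprinted regions, and none was called between genotypes at any stage by limma. At an unadjusted p under 0.05 there were 2 at MII (Zfp809 and Zfp708), 1 at PN3 (Zfp445), 0 at E2C and 2 at L2C (Zfp568 and Zfp708). Such a p was found for 58 of all 159 members at MII and 28 at PN3. The share of all genes with it at these 2 stages is not given here, so the counts there are a description only. After adjustment 13% of all genes were called at MII and 3.05% at PN3. An unadjusted p under 0.05 was found for 5.98% of all genes at E2C and 17.7% at L2C. Zfp809 was at 18.6, 13.0 and 37.7 in wild-type and at 17.9, 30.2 and 29.6 in knockout L2C embryos, which overlapped. Zfp445, a keeper of imprints, was at 17.2, 13.7 and 11.9 against 10.9, 11.5 and 10.7, with every knockout value below every wild-type value (-0.33, adjusted p = 0.532, limma). Zfp568, which represses a placental transcript of Igf2, was at 31.1, 27.7 and 16.6 against 17, 17 and 16, with overlap. The other members of this group are maternal. Zfp708, which binds an endogenous retroviral repeat in oocytes, was at 5.04, 5.33 and 20.4 in wild-type and at 20.1, 21.8 and 16.9 in knockout L2C embryos (1.13, adjusted p = 0.177, limma), and its difference was -0.08 within the libraries with over 16000 genes above 0. Zfp932, a silencer of endogenous retroviruses, overlapped between genotypes at L2C, with 8.67, 5.36 and 12.8 against 9.98, 10.9 and 10.4.

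Of 14 Zfp genes listed for roles in RNA, ribosomes, the spindle, ubiquitin or SUMO, 12 are members. In the knockout 5 of them rose from MII to L2C and 2 fell, by limma, against 38% of all genes called higher and 30.7% lower. Those that rose were Zfp622, Zfp706, Zfp106, Zfp346 (a binder of double-stranded RNA) and Zfp91 (a ubiquitin ligase). Zfp706 was at 24.3 to 26.7 at MII, 31.9 to 36.1 at PN3, 34.1 to 43.5 at E2C and 60.4 to 64.9 at L2C in wild type. Zfp91 was at 70.9, 78.2 and 68.7 in wild-type and at 51.4, 59.9 and 56.4 in knockout L2C embryos, without overlap (-0.37, adjusted p = 0.259, limma). Those that fell were Zfp277 and Zfp830, and Zfp207, which brings Bub3 to kinetochores, was at 39.5 to 46.6 in wild-type oocytes and at 25.7 to 38.2 at L2C. Between genotypes only Zfp598 and Zfp106 of this group were called, both at MII, against 13% of all genes there.

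Of 14 listed transcription and chromatin factors 13 are members, and 8 rose and 3 fell from MII to L2C in the knockout by limma, again against 38% and 30.7% of all genes. Zfp281, a regulator of pluripotency genes, was at 0.744 to 0.963 in wild-type oocytes and at 7.34, 7.26 and 14.6 at L2C. Zfp217, which binds the Lsd1 and CoREST complex, was at 5.88 to 6.21 and then at 26.7, 36.2 and 42. Zfp143, a widely used promoter-binding factor, dipped from 15.4 to 15.5 at MII to 6.04 to 7.88 at E2C and was at 22.8 to 31.9 at L2C, and its fall from PN3 to E2C passed the test (-0.55, adjusted p = 0.0242, limma). Zfp335, a partner of H3K4 methyltransferase complexes, was at 23.8, 28.1 and 13.3 in wild-type and at 15.4, 10.6 and 12.7 in knockout L2C embryos, with overlap through replicate 3 of the wild type (-0.66, adjusted p = 0.391, limma). Between genotypes Zfp687 and Zfp532 were called, both higher at MII, against 13% of all genes called there (5.99% higher).

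Among 17 measured genes of the KRAB silencing machinery, out of 18 listed, Dnmt1 alone was called between genotypes. The call was at MII, where 13% of all genes were called. Dnmt1 was at 378 ± 8.3 (SD, n = 3) in wild-type and 535 ± 37 (SD, n = 2) scaled FPKM in knockout oocytes (0.50, adjusted p = 6.68e-06, limma). Trim28, the corepressor that KRAB boxes recruit, was at 74.9 ± 22 (SD, n = 3) in wild-type and 51.5 ± 12 (SD, n = 3) in knockout L2C embryos (-0.51, adjusted p = 0.62, limma). From MII to L2C in the knockout 5 of the 17 rose and 6 fell by limma, against 38% and 30.7% of all genes. Among them Setdb1 fell by 1.66 (adjusted p = 1.38e-10, limma) and Mta2 rose by 5.88 (adjusted p = 1.41e-15, limma). Setdb1 also fell in wild type, from a mean of 67.0 at MII to 19.6 at L2C, where the knockout mean was 19.1.

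The members also differed in features that their choice did not use. A coding sequence was found for 158 of them in GENCODE M21, and its translation held a median of 11.5 C2H2 fingers for maternal and 10 for zygotic members, beside 10 for the Zfp genes under the FPKM level. A KRAB box pattern was found in 36 of 76 maternal (47.4%) and 25 of 82 zygotic members (30.5%). It was found in 86 of 169 Zfp genes under the FPKM level that had a coding sequence (50.9%). The pattern asks for set residues, so a KRAB box that departs from it is missed, and how many were missed was not measured. The silencer Zfp708, for example, had no match. Members without the pattern are therefore not known to lack a KRAB box. The 36 maternal members with the pattern had a median knockout difference of 0.26 at L2C, with 27 above 0, and the 40 without it 0.11 (reported without a test). All maternal genes at the same FPKM level had a median of 0.16, with 63.5% above 0. The 57 zygotic members without the pattern had a median of -0.24, and the 25 with it -0.13. The zygotic members with the pattern also had the larger wild-type gain (1.97 against 0.97).

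Many members sit in clusters. Chromosome 7 held 32, chromosome 17 held 19 and chromosome 8 held 17 of them. A run of neighbours with gaps of at most 200 kb at chr7:24134169-24301232 (GRCm38) held Zfp235, Zfp111, Zfp109, Zfp108 and Zfp61, all maternal. Their median knockout difference at L2C was 0.30, with 5 of 5 above 0 and none called by limma (1 at an unadjusted p under 0.05, Zfp108). Of all maternal genes at the same FPKM level 63.5% were above 0, with a median of 0.16. Among all genes tested, 0.77% were called and 17.7% had such an unadjusted p. The 8 members at chr17:21383748-22071168 included 7 zygotic members, among them Zfp51 and Zfp54, with a median of 0.02. At chr7:29768552-30107622 maternal Zfp383 and Zfp420 lay among 6 zygotic members that included Zfp568 and Zfp260, so neighbours belonged to both classes. The 5 members at chr6:47835661-48048911, Zfp398, Zfp282, Zfp212, Zfp956 and Zfp777, had a median of -0.34, with 0 above 0 and none called by limma (0 at an unadjusted p under 0.05). Of these 3 are maternal and 2 zygotic, and of all zygotic genes 71.0% were below 0. Neighbours in such runs are related copies and are not independent of each other.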

How the data were processed

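RNA from 25 libraries of mouse oocytes and embryos was measured with a stranded total-RNA kit, per the labels' protocols; no label says whether counting used the strand, and antisense neighbours may share reads. Per the submitters' processing notes, Trim Galore 0.4.5, HISAT2, StringTie, HTSeq and the mm10 (GRCm38) build were named; roles are not stated. The authors deposited gene FPKM per library, without counts, and no read-sized steps that recover depth were found. FPKM was divided by median-ratio factors over 6492 genes and tested as log2(value + 1), so folds of low genes are understated. The deposited files hold no log2 values.

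limma 3.58.1 (R 4.3.3) was fitted to 8 group means over all libraries with 1 variance weight per stage (arrayWeights), trend and robust moderation, on 12079 genes at 1 FPKM or more in at least 3 libraries. All members pass that filter by construction. Benjamini-Hochberg adjusted p under 0.05 over all genes was the call. On simulated data for all 12079 genes with 200 changed, 14.1% to 19.1% of calls between genotypes were false with moderated SDs and 21.2% to 34.5% with SDs as estimated, above the nominal level; fits of single stages gave 2.78% to 5.56%. At E2C and L2C 37.3% and 45% of 2-fold changes were recovered (moderated SDs), against 100% and 99.3% at MII and PN3.

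The members, lists and tests were chosen with earlier results of these data known. Named genes were the called members, the ends of the wild-type change, the highest levels, those at the boundaries and members of role lists. No label says that replicate numbers pair libraries. Same-numbered wild-type and knockout libraries correlated at -0.184 to 0.428 in their deviations, which cannot decide whether they shared a batch. At E2C every library correlated best with its own number. At PN3 the same-numbered pairs ranged from 0.0129 to 0.428, and wild-type replicate 2 with knockout replicate 4 was at -0.382. Promoters came from the RefSeq table for GRCm38.p6. Fingers (C-x2-4-C-x12-H-x3-5-H) and KRAB patterns were counted in translated GENCODE M21 coding sequences, in place of the planned RefSeq proteins. Python 3.11.15 and pandas 2.3.3 were used. Expressed Zbtb, Zkscan and Zscan genes were taken by the same FPKM level.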

Additional observations from a re-analysis of the deposited data

Results flagged for a closer look

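Single libraries lay far from the other 3 of their group in 4 of 134 groups of 4 tested for named members (2.99%; chance gives about 1 in 20). Zfp277 was at 57.2 scaled FPKM in wild-type PN3 replicate 2, against 47.0 to 48.5 in the others, and Zfp451 at 41.8 in the same library, against 35.4 to 36.4. Zfp618 was at 4.38 in wild-type PN3 replicate 4, against 3.94 to 4.02. Zfp956 was at 12.6 in wild-type PN3 replicate 1, against 11.4 to 11.6.

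The knockout difference changed from MII to PN3 for 4 members by the limma interaction (adjusted p under 0.05, against 2.29% of all genes). It moved upward by 0.32 for Zfp106, 0.50 for Zfp260, 0.49 for Zfp600 and 0.48 for Zfp956 on the log2 scale. The smallest adjusted p was 0.0245, for Zfp956 (limma).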

How the results depend on the processing

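Of the recomputed counts of called members and class medians, other than those without a replicate, 77 stayed near the main value and 23 moved. Counts were judged on their totals only, not on direction. With FPKM as deposited, for example, MII gave 6 higher and 20 lower members in place of 13 and 12, and was counted as unmoved. The cause was not tested. Equal weights gave 0 called members at both MII and PN3, 2 at E2C, 21 at L2C and 4 for the difference between E2C and L2C, and 1 weight per library gave 3 at PN3, 47 at L2C and 13 for that difference. On simulated data 70.8% and 55.5% of equal-weight calls at E2C and L2C were false (moderated SDs). Fits of single stages gave 2 at MII, 0 at PN3 and 0 at L2C. At PN3 a pseudocount of 0.1, no filter and TPM each gave 0, and at L2C they gave 2, 0 and 2. Members at 10 FPKM were fewer, with 34 called from PN3 to E2C in wild type and 75 from MII to L2C in the knockout. The maternal L2C median was 0.24 over members that changed at least 2-fold, and the zygotic one -0.13 when the knockout libraries made the split. The zygotic median at MII (0.00) became -0.032 with FPKM as deposited, and ranged from -0.024 to 0.015 without single replicates, lowest without knockout MII replicate 2. Without single replicates, called members ranged over 11 to 38 for MII, 0 to 2 for PN3, 0 to 0 for E2C, 0 to 26 for L2C, 42 to 58 from PN3 to E2C in wild type, 108 to 126 from MII to L2C in the knockout and 0 to 8 for the difference between E2C and L2C. The maternal medians ranged from 0.036 to 0.24 at E2C, lowest without wild-type E2C replicate 2, and from 0.081 to 0.25 at L2C, and the zygotic medians from -0.10 to 0.00 and from -0.33 to -0.19. Within the L2C libraries with over 16000 genes above 0, a comparison chosen after seeing the data, the zygotic median was -0.11. The replicate block gave 20 called members for MII, 13 for PN3, 0 for E2C, 1 for L2C, 59 from PN3 to E2C in wild type and 121 from MII to L2C in the knockout. Same-numbered libraries were not paired by the labels; only at E2C did every library correlate best with its own number. Calls for single members were kept in 667 and lost in 158 recomputations at MII, kept in 12 and lost in 21 at PN3, and kept in 9 and lost in 24 at L2C. Most of these recomputations left out a library of another stage, which bears little on the contrast. At MII such recomputations gave 23 to 27 called members. Leaving out an MII library gave 11 to 38 and the MII fit alone 2, so the pooled count overstates how firm the MII calls are. Equal weights gave 0 at MII, but they apply the wider spread of the 2-cell stages there. On simulated data they recovered 57.7% of 2-fold changes at MII, against 100% with stage weights (moderated SDs). Spread limits what could be seen: the median SD on the log2 scale was 0.08 for MII and 0.13 for PN3 libraries and 0.35 and 0.32 for E2C and L2C libraries.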

Other observations

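Other C2H2 families were counted at the same FPKM level, with no test of their division between the classes. Of 24 expressed Zbtb genes, whose proteins pair zinc fingers with a BTB domain, 18 were zygotic and 6 maternal, and 14 rose and 3 fell from MII to L2C in the knockout by limma, against 38% and 30.7% of all genes. Of 9 expressed Zscan genes 7 were zygotic, and 6 rose from PN3 to E2C in wild type, Zscan4a, Zscan4b, Zscan4c, Zscan4d, Zscan4f and Zscan5b, which include near-identical copies of the Zscan4 cluster that can share reads. Of 6 expressed Zkscan genes 4 were maternal. Between genotypes 5 Zbtb genes were called at MII (4 higher and 1 lower in the knockout) by limma, against 13% of all genes. The median knockout difference of the Zbtb genes at L2C was -0.20, with 6 of 24 above 0. All zygotic genes at the same FPKM level had a median of -0.24 (71.0% below 0), and all maternal genes 0.16 (63.5% above 0).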
